A study of Drosophila melanogaster with 16 samples.

Results

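Nuclear receptors of hormone and nutrient signalling were followed in the antennae and brains of female Drosophila melanogaster through 10 genes, EcR, usp, Eip75B, Eip78C, Hr38, Hr39, Hr96, Hnf4, ERR and svp. The genes were found by name and gene number. No measured value enters this choice, but earlier results of these data were known when it was made. The arrays carried 27 probes for them among 32162 probes. Of the 27, Hr38 had 5 probes, EcR and svp 4 each, usp, Eip75B and Hr39 3 each, Hnf4 2, and Eip78C, Hr96 and ERR 1 each. Probes of 1 gene measure 1 RNA extract and are no replicates of each other. RNA levels were read from 16 one-colour Agilent arrays, glass slides of DNA probes whose spots light up in proportion to the dye-labelled RNA copies they capture. The 4 groups of 4 arrays were antennae labelled starved, antennae labelled fed, brain labelled starved and brain labelled fed. All flies were 5 to 7 days old, the starved groups had 28 h of starvation on moist tissue paper and the fed groups had sucrose in the same vials. Each extract pooled 100 antennae or 50 brains of 50 flies, and the 4 extracts of a group came from different flies. The labels give no strain, allele or transgene for these flies, so that no group differs from another by genotype as far as they say.

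Nuclear receptors are transcription factors that bind DNA directly and whose activity can depend on a small lipophilic ligand, such as a steroid hormone, a sterol or a fatty acid. In insects the ecdysone receptor EcR pairs with the product of usp, the fly counterpart of the vertebrate retinoid X receptor, and a cascade of further nuclear receptors, among them Eip75B, Eip78C and Hr39, lies downstream of this steroid signal. Others of the family tie gene expression to nutrients: Hnf4 is a regulator of fat breakdown, ERR of carbohydrate metabolism, and Hr96 of sterol and lipid balance.

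Levels are given as log2 signal relative to the 75th percentile of the array, so that a log2 level of 0 is the brightness of that percentile and a difference of 1 is a doubling. The 75th percentile lay between 614 and 1028 signal units, 65.4% to 73.6% of spots were well above background, no spot was saturated, and the correlation between arrays of 1 group was 0.978 to 0.997. The replicate number is also the slide, each slide held all 4 groups, and each group had the same position on every slide, so that position and group cannot be told apart. A list of 6 antennal genes, such as Orco and Obp83a, summed to between 30089% and 38775% of the 75th percentile in antennae and to between 163% and 296% in brain, so that the arrays matched their tissue labels. The labels of the feeding state are less settled. Pepck1, a gluconeogenic enzyme gene that fasting is known to raise, was lower on the arrays labelled starved (log2 difference -2.97 ± 0.25 in antennae and -3.13 ± 0.33 in brain, SE, limma adjusted p = 0.000602 and 0.000963), and sug, a gene induced by sugar, was higher (1.65 ± 0.22 and 2.94 ± 0.29, adjusted p = 0.00213 and 0.000824). These genes were picked after their values were seen. AstA in antennae (-1.85 ± 0.32) and CCHa1 in brain (-1.64 ± 0.29) were lower as well. This sign is opposite to the direction the study gives for these peptide genes. Every starved minus fed difference below is therefore a difference between arrays as they are labelled, and its sign would turn if the labels were exchanged.

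The first comparison asked which of the receptors differ in expression between starved and fed flies in the antennae. Hr38 fell on 3 of its 4 tested probes, EcR and svp each on 1 probe and Hr39 on 2, while ERR, measured by 1 probe, rose. Of the 27 probes 23 were bright enough to be tested, that is, above the scanner's background limit throughout 1 group or more, and they covered all 10 genes. Of these, 8 (34.8%) passed limma with Benjamini-Hochberg adjustment over 20587 probes at 0.05, 1 higher and 7 lower, against 29.5% of all probes tested, 10.3% higher and 19.2% lower. The members' share of calls thus lay near that of all probes. Centring each array on its median instead turned this split to 8 higher and 5 lower, because it moved the median difference of all probes from -0.04 to 0.22. The probes it added were all higher, 2 of Hnf4 (0.30 and 0.53) and 1 each of svp, Hr39, Hr96, EcR and usp (0.30 to 0.46), and EcR A_09_P050511 and Hr39 A_09_P144520 lost their calls. Starved and fed arrays did not overlap on 7 of the 23 probes (30.4%), against 31.9% of all probes.

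Hr38 encodes the single fly member of the NR4A family, orphan receptors whose vertebrate relatives are induced by neuronal activity. At its brightest probe, A_09_P046976, the log2 levels of replicates 1 to 4 were -0.74, -0.97, -1.11 and -1.07 in antennae labelled starved and -0.32, -0.29, -0.14 and -0.29 in those labelled fed. The highest starved array lay below the lowest fed array. The log2 difference was -0.71 ± 0.09 (SE, n = 4 each, limma adjusted p = 0.00192), and within the 4 slides it ran from -0.97 to -0.42. Probe A_09_P214370 of the same transcript, CG1864-RB, read -2.77, -2.36, -2.56 and -2.45 against -1.92, -1.58, -1.48 and -1.44, again without overlap, with a log2 difference of -0.93 ± 0.13 (adjusted p = 0.00237 in limma). A_09_P030386, also of that transcript, differed by -0.78 ± 0.14 (limma adjusted p = 0.00596) and did not overlap either. All these probes have the smallest p that an exact permutation test of 4 arrays against 4 can give, 0.0286, two-sided.

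The remaining probes of Hr38 were less clear. A_09_P030391, drawn from transcript CG1864-RC, ran from -2.44 to -1.74 in antennae labelled starved and from -1.81 to -1.61 in those labelled fed, so that the groups overlapped, and its log2 difference of -0.36 ± 0.14 missed the threshold (limma adjusted p = 0.0788). Without starved replicate 4 it passed (-0.49, adjusted p = 0.0186 in limma). A_09_P101640 was not well above background on any antennal array labelled starved and on 2 of 4 labelled fed, and it was not tested. With centring on the median, A_09_P046976, A_09_P030386 and A_09_P214370 came to log2 differences of -0.46, -0.52 and -0.67 and kept their calls, as they did in each of the 8 fits without 1 array.

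**Figure D1:**
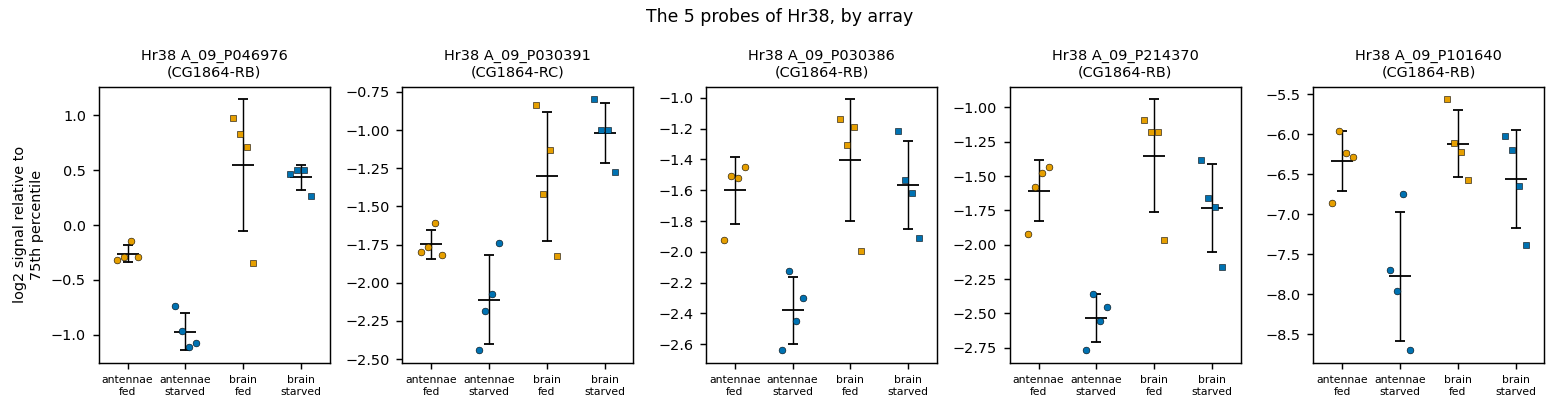
Log2 level of the 5 Hr38 probes (y axis, log2 signal relative to the 75th percentile of the array) on each array of the 4 groups (x axis), with the mean and 1 SD as bars, n = 4. In antennae the arrays labelled starved lie below those labelled fed on A_09_P046976, A_09_P214370 and A_09_P030386, and in brain fed replicate 4 lies apart at -0.34 on A_09_P046976 while the other fed arrays lie at 0.71 to 0.98.

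EcR, the ecdysone receptor itself, gave different answers by probe. A_09_P050511 read 1.58, 1.5, 1.24 and 1.10 in antennae labelled starved and 1.80, 1.72, 1.88 and 1.95 in those labelled fed, with no overlap. The log2 difference of -0.48 ± 0.11 passed (limma adjusted p = 0.0164), held when any 1 array was left out, and sat at the threshold with the slide as a block (adjusted p = 0.0501). A_09_P042146, of the same transcript CG1765-RB, differed by 0.05 ± 0.07 and A_09_P051976, of CG1765-RE, by -0.13 ± 0.08, both short of the threshold (limma adjusted p = 0.629 and 0.253). The fourth EcR probe, A_09_P206975, was not well above background on any of the 16 arrays.

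Its partner usp had 3 probes of transcript CG4380-RA, with log2 differences of -0.06 ± 0.09, 0.05 ± 0.06 and -0.15 ± 0.10, and none passed (limma adjusted p from 0.285 to 0.663). Eip75B and Eip78C gave values of like size. Eip75B, a haem-binding receptor of the early ecdysone response, differed by -0.06 to -0.14 over 3 probes, and Eip78C, its close relative, by -0.11 ± 0.12. Hr39, an FTZ-F1 relative required in fly reproductive glands, read -3.07, -3.05, -3.15 and -2.89 on A_09_P012056 (CG8676-RC) in antennae labelled starved against -2.37, -2.68, -2.54 and -2.49 in those labelled fed. The groups did not overlap and the log2 difference was -0.52 ± 0.09 (limma adjusted p = 0.00463). Of the other Hr39 probes, A_09_P144520 (CG8676-RA) lay just past the threshold at -0.25 ± 0.08 (limma adjusted p = 0.0489) with overlapping groups. It fell short of the threshold in 7 of 8 fits without 1 array, and came to 0.0069 with centring on the median. Its call was also lost with normexp, quantile scaling, the percentile over detected probes, no filter on dim probes and the slide as a block. Array weights, 1 fit over 16 arrays, the methods' t-test and the deposited table lost it too. A_09_P012051 (CG8676-RB) differed by 0.05 ± 0.09.

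ERR, the fly oestrogen-related receptor, was the only member that rose in antennae under this scaling. Its probe read 0.27, 0.26, 0.19 and 0.18 on the arrays labelled starved and -0.23, -0.02, -0.19 and -0.07 on those labelled fed. All 4 starved arrays lay above all 4 fed arrays, by a log2 difference of 0.36 ± 0.07 (limma adjusted p = 0.00741) and by 0.26 to 0.50 within slides. The call held in all 12 other processing settings (0.34 to 0.61) and in each of the 8 fits without 1 array. Hnf4, a fatty-acid-binding receptor, had a dimmer probe, A_09_P047756, that differed by 0.28 ± 0.12 (limma adjusted p = 0.104, or 0.0361 with the slide as a block) and a brighter one at 0.04 ± 0.06. Hr96 read -0.24 to 0.07 against -0.50 to -0.20, a log2 difference of 0.21 ± 0.10 (limma adjusted p = 0.143).

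The receptor of the COUP-TF family, svp, known from eye and neuron development, was read by 2 tested probes in antennae that did not move alike. A_09_P049131 read -3.21, -3.37, -3.14 and -3.16 on arrays labelled starved and -2.41, -2.37, -2.36 and -2.54 on those labelled fed. These groups lay far apart, and the log2 difference of -0.80 ± 0.08 had the smallest adjusted p of the members here (limma, 0.00075). A_09_P009651, annotated to the same transcript CG11502-RB, read -1.27 to -0.97 against -1.51 to -1.08, a log2 difference of 0.15 ± 0.10 (limma adjusted p = 0.301). Both probes of CG11502-RA were not well above background on any antennal array and were not tested.

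Brain RNA in the antennal extracts was followed with 8 peptide genes of brain neurons, among them Pdf, Dsk and NPF. Their summed level was 0.343% to 0.650% of its mean in fed brain on the antennal arrays labelled starved and 0.679% to 3.94% on those labelled fed, and 4 of the 5 tested were lower in starved antennae, while Ilp2 and Crz were not well above background on any starved antennal array. The 3 Hr38 calls in antennae amounted to 20.9%, 35.8% and 39.2% of the level of the same probe in fed brain, the svp call to 16%, the EcR call to 28.1% and the Hr39 calls to 26.6% and 13.3%. A list of 6 photoreceptor genes summed to 13074% to 22123% of the 75th percentile in starved antennae and 15236% to 21280% in fed antennae, against 25345% to 34225% in fed brain, and 1 of the 6 was lower in starved antennae. The summed level of 3 gut genes was 9.22% to 34.8% of the 75th percentile in starved antennae and 38.0% to 9296% in fed antennae, and 2 of these 3 genes were lower in the starved group. The part of brain, photoreceptor and gut RNA in the member differences was not tested. In such bulk extracts, fewer cells of a type and less RNA per cell cannot be told apart.

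**Figure D2:**
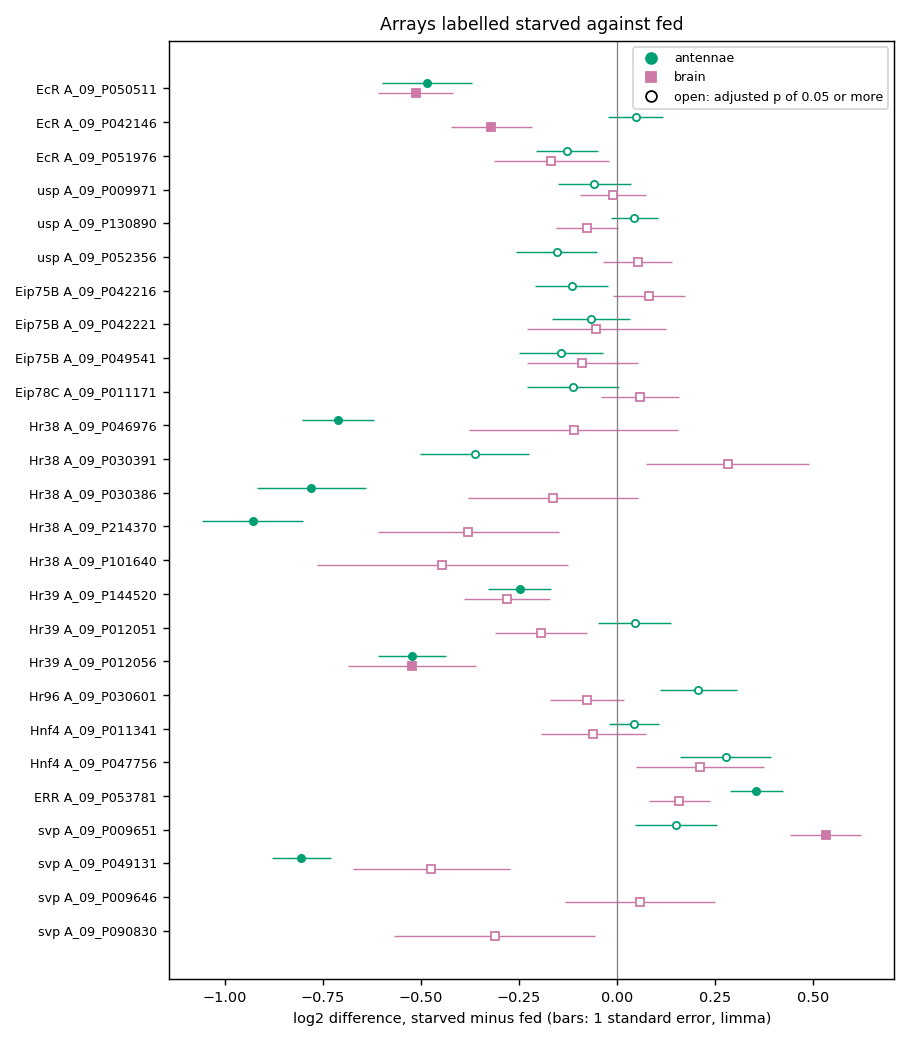
Log2 difference, starved minus fed as labelled (x axis), of each member probe tested (y axis), in antennae (circles) and brain (squares), with 1 SE from limma. Filled symbols passed the adjusted threshold: 8 of 23 in antennae, with ERR at 0.36 and Hr38 A_09_P214370 at -0.93, and 4 of 26 in brain, with svp A_09_P009651 at 0.53 and EcR A_09_P050511 at -0.51.

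The same question was put to the brain. There EcR fell on 2 probes and Hr39 on 1, svp rose on 1 probe, and Hr38, usp, Eip75B, Eip78C, Hr96, Hnf4 and ERR had no probe past the threshold. The members' share of calls was below that of all probes, a difference that was not tested. Of 26 member probes tested, 4 passed (15.4%), 1 higher and 3 lower, against 33.0% of 21838 probes, 11.0% higher and 22.0% lower. The groups did not overlap on 3 member probes (11.5%), against 32.6% of all probes. With centring on the median, which moved the median difference of all probes from -0.09 to 0.18, the split was 4 higher and 0 lower.

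EcR probe A_09_P050511 read 1.45, 1.25, 1.16 and 1.41 in brain labelled starved and 1.96, 1.78, 1.89 and 1.70 in brain labelled fed. The starved arrays all lay below the fed arrays, by a log2 difference of -0.51 ± 0.10 (limma adjusted p = 0.0065) that ran from -0.73 to -0.29 within slides. This probe was called in both tissues, with log2 differences of -0.48 in antennae and -0.51 in brain. Under centring on the median it came to -0.23 and -0.25 and missed the threshold in both (limma adjusted p = 0.166 and 0.162). EcR probe A_09_P042146 differed by -0.32 ± 0.10 in brain (limma adjusted p = 0.0456) with overlapping groups and missed the threshold with the slide as a block (adjusted p = 0.0618), with centring on the median (-0.055, adjusted p = 0.71), with quantile scaling (-0.23), with no filter on dim probes, with the methods' t-test, on the deposited log2 table (-0.31) and without brain starved replicate 1, 3 or 4 or fed replicate 1, 2 or 3 (log2 differences from -0.26 to -0.39 over all fits without 1 array). The probe of CG1765-RE differed by -0.17 ± 0.15 (limma adjusted p = 0.405).

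In brain svp was higher on A_09_P009651, which read 0.49, 0.35, 0.17 and 0.19 on arrays labelled starved and -0.30, -0.19, -0.16 and -0.29 on those labelled fed. The groups lay apart by a log2 difference of 0.53 ± 0.09 (limma adjusted p = 0.00476). A_09_P049131 of the same transcript had the opposite sign, -0.47 ± 0.20, with overlapping groups (limma adjusted p = 0.102). The 2 probes of CG11502-RA differed by 0.06 ± 0.19 and -0.31 ± 0.26, so that the 4 svp probes gave no common direction in brain and their mean differed by -0.048.

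Hr39 on A_09_P012056 read -2.90, -2.65, -2.93 and -3.01 in brain labelled starved and -2.04, -2.23, -2.33 and -2.80 in brain labelled fed. Fed replicate 4 lay within the starved group, and the log2 difference was -0.52 ± 0.16 (limma adjusted p = 0.0419). This call was lost with centring on the median (-0.26), with quantile scaling (-0.33), with the mean over the probes of the gene (-0.33), with no filter on dim probes, with the methods' t-test and without brain starved replicate 1, 3 or 4 or fed replicate 1, 2 or 3. The Hr39 probes of CG8676-RA and CG8676-RB differed by -0.28 ± 0.11 and -0.19 ± 0.12 and did not pass (limma adjusted p = 0.0801 and 0.233).

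No Hr38 probe passed in brain, and the calls of the gene there varied with the fit. A_09_P046976 read 0.46, 0.50, 0.50 and 0.27 on arrays labelled starved and 0.98, 0.83, 0.71 and -0.34 on those labelled fed, so that fed replicates 1 to 3 lay above all starved arrays and fed replicate 4 below them. The log2 difference was -0.11 ± 0.27 (limma adjusted p = 0.774) with that array and -0.41 (adjusted p = 0.0165) without it. A_09_P214370 gave -0.38 ± 0.23 (limma adjusted p = 0.234), and -0.58 (adjusted p = 0.0335) without the same array. With the slide as a block this probe passed with all arrays (-0.38, limma adjusted p = 0.0413), and within the 4 slides it ran from -0.55 to -0.19. A_09_P030391 had the opposite sign in the main fit, 0.28 ± 0.21 (limma adjusted p = 0.319), and passed under centring on the median (0.55, limma adjusted p = 0.0449). A_09_P030386 gave -0.16 ± 0.22 (limma adjusted p = 0.589). A_09_P101640, well above background on 2 of 4 starved and 4 of 4 fed brain arrays, gave -0.44 ± 0.32 (limma adjusted p = 0.311). Leaving out brain fed replicate 4 raised the number of member calls in brain from 4 to 7. The 3 added were Hr38 A_09_P046976, Hr38 A_09_P214370 and Hr39 A_09_P144520 (-0.38, limma adjusted p = 0.00601).

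No probe of the metabolic receptors passed in brain. ERR read -0.20, -0.22, -0.22 and -0.04 on arrays labelled starved and -0.46, -0.27, -0.30 and -0.28 on those labelled fed, without overlap, but its log2 difference of 0.16 ± 0.08 did not pass (limma adjusted p = 0.148). Hnf4 gave -0.06 ± 0.13 and 0.21 ± 0.16 on its 2 probes. With centring on the median ERR (0.42, limma adjusted p = 0.0429) and Hnf4 A_09_P047756 (0.48, adjusted p = 0.0403) were called higher. Hr96 gave -0.08 ± 0.10. Over usp, Eip75B and Eip78C the 7 probes lay between -0.09 and 0.08. Fat body genes moved with the feeding label in brain: 5 of 5 tested of a list of 6, such as Yp1 and apolpp, were higher in starved brain, and their summed level was 9778% to 17550% of the 75th percentile there and 2962% to 5236% in fed brain, with Fbp1 not well above background on any brain array. Glial genes summed to 3028% to 3743% in starved and 2323% to 2810% in fed brain (2 of 4 higher), haemocyte genes to 145% to 181% and 72.8% to 92.1% (2 of 3 higher), and muscle genes to 3002% to 3856% and 1719% to 2827% (2 of 7 higher, 1 lower). Gut genes varied widely between arrays of 1 group, with sums of 667% to 21388.5% in starved and 524% to 10567.5% in fed brain (0 of 3 called). The part of fat body, glial, haemocyte, muscle and gut RNA in the member differences in brain was not tested.

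Whether the feeding difference itself differed between antennae and brain was tested as an interaction over all 16 arrays. None of 26 member probes passed in limma, against 2.96% of 22784 probes, 1.31% higher and 1.65% lower. The 4 member probes of lowest p, none past the threshold, were EcR A_09_P042146 (0.37 ± 0.12, limma adjusted p = 0.139), svp A_09_P009651 (-0.38 ± 0.14, adjusted p = 0.18), Hr38 A_09_P030391 (-0.65 ± 0.26, adjusted p = 0.234) and Hr38 A_09_P030386 (-0.62 ± 0.27, adjusted p = 0.28), each as antennal minus brain difference. The 4 Hr38 probes tested in antennae lay between -0.55 and -0.65, with standard errors of 0.26 to 0.30. A_09_P101640 and the svp probes of CG11502-RA were also among the 26, but were not well above background on any starved antennal array. Their fitted values, -0.99 for A_09_P101640, rest on signal near background and are not read. Thus in the main fit Hr38 passed in antennae and not in brain, where its calls varied with the fit as given above, and the difference between the tissues did not pass. EcR A_09_P042146 passed the interaction with array weights (0.42, adjusted p = 0.0334 in limma) and without brain fed replicate 4 (0.44, adjusted p = 0.0425).

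**Figure D3:**
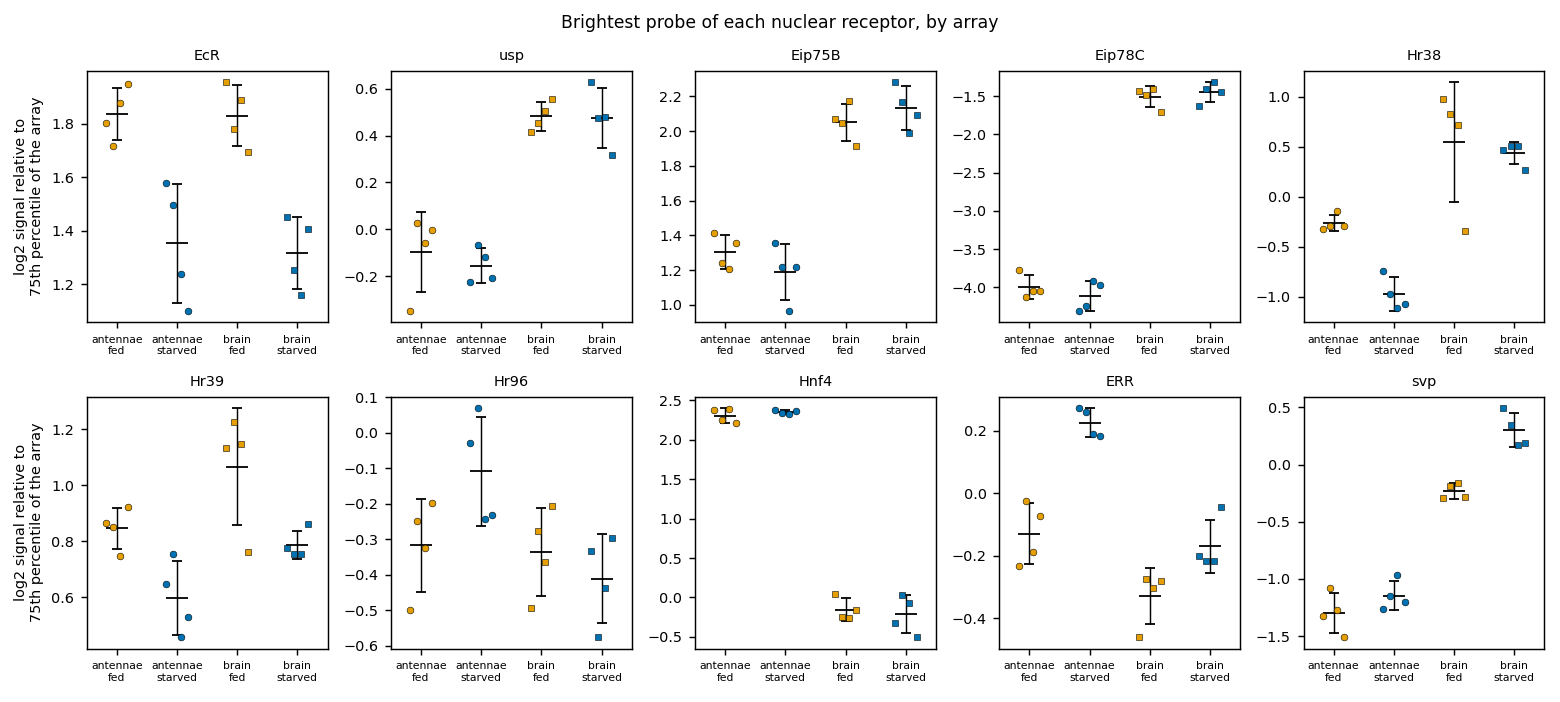
Log2 level (y axis, log2 signal relative to the 75th percentile of the array) of the brightest probe of each of the 10 receptor genes on every array of the 4 groups (x axis), with the mean and 1 SD as bars, n = 4. Hnf4 lies at 2.21 to 2.39 in antennae and at -0.50 to 0.05 in brain, Eip78C at -4.31 to -3.77 in antennae and -1.71 to -1.31 in brain, and ERR separates starved from fed antennae.

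Levels in the antennae were then set against those in the brain, first in fed flies and, with other arrays, in starved flies. Hnf4 stood out as the member that was higher in antennae in both, whereas Eip78C, Eip75B, usp and svp were higher in brain on every probe bright in both tissues. In fed flies 16 of 26 member probes passed (61.5%), 2 higher in antennae and 14 lower, against 74.9% of 22624 probes, 33.1% higher and 41.8% lower. In starved flies 21 of 25 passed (84%), 5 higher and 16 lower, against 76.9% of 21471 probes, 35.9% higher and 41.0% lower. The groups did not overlap on 15 and 21 member probes, 57.7% and 84% of those tested, against 69.8% and 72.7% of all probes. These counts include the svp probes of CG11502-RA, which were bright only in brain and whose direction the filter set. Hr38 A_09_P101640, not called, also entered the test in fed flies through brain alone. Most probes on the array thus differed between these tissues, and the members' shares lay on either side of those of all probes.

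Hnf4 read 2.38, 2.24, 2.39 and 2.21 in fed antennae and 0.05, -0.24, -0.26 and -0.16 in fed brain on A_09_P011341. The log2 difference was 2.46 ± 0.09 (limma adjusted p = 7.86e-08), which is 5.5-fold, and in starved flies it was 2.56 ± 0.12. The dimmer probe A_09_P047756 gave 2.17 ± 0.16 and 2.23 ± 0.12, so that both probes and both feeding states gave like values.

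Eip78C read -3.77, -4.13, -4.04 and -4.05 in fed antennae and -1.42, -1.49, -1.40 and -1.71 in fed brain. It was lower in antennae by a log2 difference of -2.49 ± 0.11 in fed and -2.67 ± 0.11 in starved flies (limma adjusted p = 1.69e-07 and 8.95e-08), or 5.63-fold and 6.34-fold. Eip75B was lower in antennae by an amount that depended on the probe. A_09_P042221 gave -2.05 ± 0.16 in fed and -2.06 ± 0.13 in starved flies, A_09_P049541, annotated to the same transcript CG8127-RA, gave -0.94 ± 0.15 and -1.0 ± 0.10, and A_09_P042216 of CG8127-RB gave -0.75 ± 0.09 and -0.94 ± 0.10. The 3 usp probes were lower in antennae, with log2 differences of -0.58 to -1.13 in fed and -0.56 to -1.33 in starved flies, and none of them overlapped between the tissues. EcR did not follow its partner: A_09_P050511 differed by 0.01 ± 0.09 and 0.04 ± 0.12, A_09_P051976 was lower in antennae by -0.61 ± 0.13 and -0.57 ± 0.11, and A_09_P042146 was higher in antennae of starved flies by 0.61 ± 0.08 (limma adjusted p = 0.000175) and at the threshold in fed flies with 0.24 ± 0.10 (limma adjusted p = 0.05, just above the limit).

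Both svp probes of CG11502-RB, bright in both tissues, were lower in antennae. A_09_P009651 read -1.32, -1.08, -1.28 and -1.51 in fed antennae against -0.30, -0.19, -0.16 and -0.29 in fed brain, a log2 difference of -1.06 ± 0.10, and A_09_P049131 differed by -1.41 ± 0.11 (limma adjusted p = 1.91e-05 and 5.73e-06). The probes of CG11502-RA were not well above background on any antennal array and well above it on all brain arrays. They entered the test through brain alone, so that the filter set their direction and their calls lend no support. The level in brain was at least 3.48-fold higher on A_09_P090830 in fed flies. In starved flies it was at least 4.33-fold (A_09_P009646) and 3.59-fold (A_09_P090830) higher. A bound takes for each antennal array the higher of the probe's own signal and the lowest signal among probes well above background. It makes no allowance for the spread of the arrays. For A_09_P009646 in fed flies the probe's own signal was the higher on every antennal array, so that its 3.57-fold is the measured difference. With normexp background correction and an offset of 50 the dim probes of CG11502-RA no longer differed by a called amount (-0.24 and -0.19 in fed, -0.0074 and 0.12 in starved flies).

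**Figure D4:**
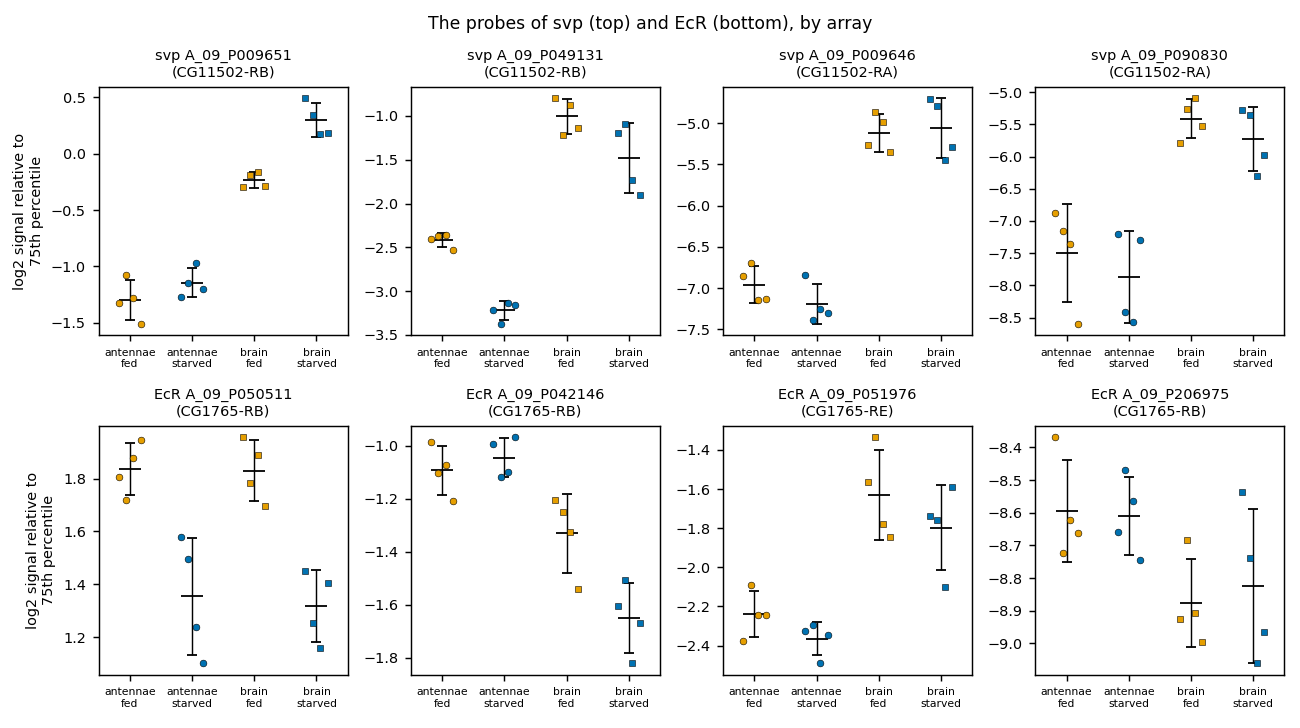
Log2 level (y axis, log2 signal relative to the 75th percentile of the array) of the 4 svp probes (top) and the 4 EcR probes (bottom) on each array of the 4 groups (x axis), with the mean and 1 SD as bars, n = 4. Probes of 1 transcript differ in pattern: in brain svp A_09_P009651 lies at 0.17 to 0.49 on starved and -0.30 to -0.16 on fed arrays, while A_09_P049131 overlaps at -1.90 to -1.09 and -1.22 to -0.80.

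Hr38 was lower in antennae than in brain on all 4 probes tested in starved flies, with log2 differences of -1.41 ± 0.10, -1.09 ± 0.16, -0.81 ± 0.16 and -0.80 ± 0.17. In fed flies only A_09_P046976 passed, with -0.81 ± 0.27 (limma adjusted p = 0.0233) and overlapping groups. This call was lost without antennae fed replicate 1 or brain fed replicate 1, 2 or 3. It was also lost with the methods' t-test (adjusted p = 0.0513) and with the mean over the probes of the gene (-0.38, limma adjusted p = 0.128). The other 4 lay between -0.45 and -0.19. Of these, A_09_P101640 was well above background on 2 of 4 fed antennal and 4 of 4 fed brain arrays. Without brain fed replicate 4 the fed comparison called 21 member probes in place of 16, among them Hr38 A_09_P030391 (-0.62, limma adjusted p = 0.00521), A_09_P214370 (-0.46, adjusted p = 0.0128) and A_09_P030386 (-0.39, adjusted p = 0.0273).

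Hr39, ERR and Hr96 differed between the 2 tissues by log2 differences of at most 0.40 in size, some of them called. Hr39 differed by -0.10 to -0.34 over its 3 probes and both feeding states, with 1 call, A_09_P012051 in fed flies (-0.34 ± 0.11, limma adjusted p = 0.0218, or 0.0511 with the slide as a block), which was lost without antennae fed replicate 2 or brain fed replicate 1, 2 or 3. ERR was higher in antennae by 0.40 ± 0.07 in starved flies (limma adjusted p = 0.000579) and by 0.20 ± 0.08 in fed flies, where its adjusted p was 0.0520, or 0.0427 with the slide as a block and 0.0390 without antennae fed replicate 1. Hr96 differed by 0.02 ± 0.10 in fed and 0.30 ± 0.10 in starved flies, the latter called (limma adjusted p = 0.0219) but not with the slide as a block (adjusted p = 0.0589) or without antennae starved replicate 1 or 2 or brain starved replicate 2 or 3.

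**Figure D5:**
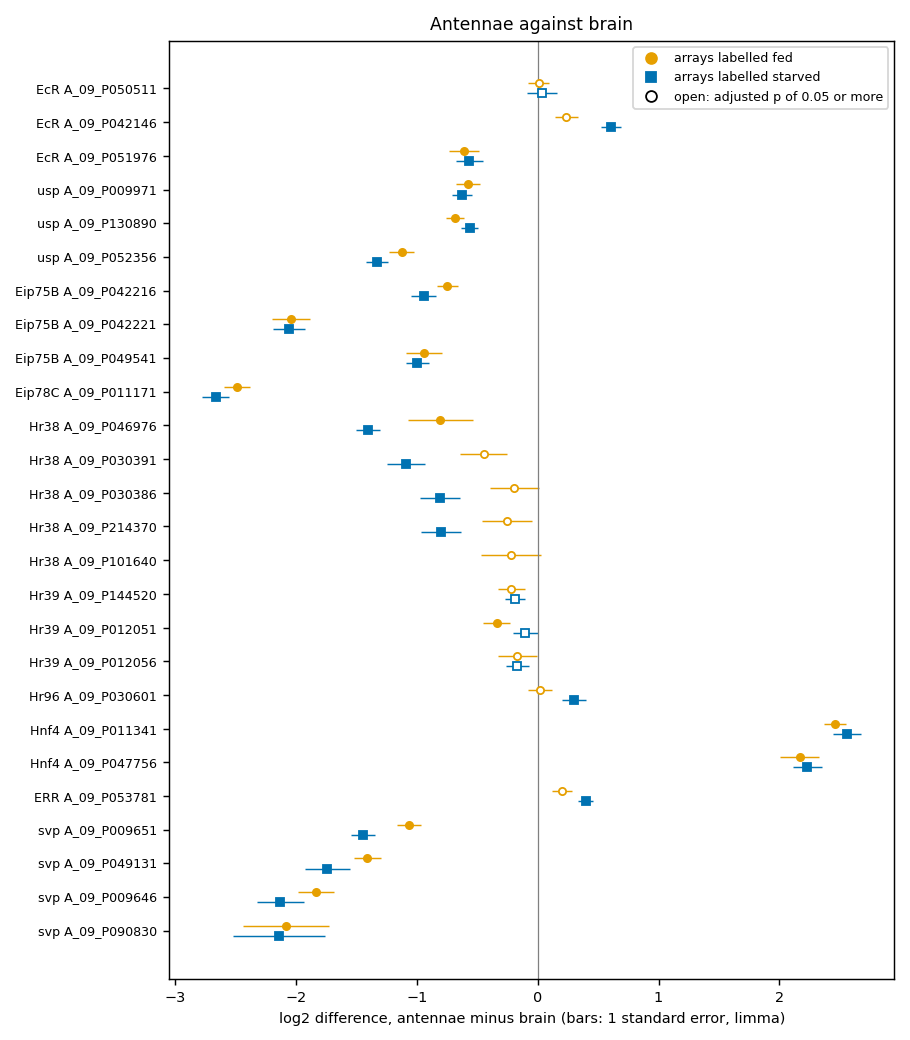
Log2 difference, antennae minus brain (x axis), of each member probe tested (y axis), in arrays labelled fed (circles) and starved (squares), with 1 SE from limma. Filled symbols passed the adjusted threshold. Hnf4 lies at 2.17 to 2.56 to the right, and Eip78C, Eip75B A_09_P042221 and the svp probes lie from -1.06 to -2.67 to the left.

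The rest of the receptor family and the genes around these receptors were described by lists, each gene by its brightest tested probe, with no test of the list. Counts below are read against the shares of all probes given above, which in antennae were 10.3% for rises and 19.2% for falls and in brain 11.0% and 22.0%. Among the other nuclear receptors, 3 of 6 tested fell and none rose in antennae, with a median log2 difference of -0.37 against -0.04 over all probes. Hr3, a receptor of the ecdysone cascade, fell in antennae (-0.77 ± 0.14) and in brain (-0.81 ± 0.12), knrl, a gap-gene relative, fell in antennae (-0.80 ± 0.09), eg fell in brain (-0.92 ± 0.24, well above background on 1 of 4 starved and 4 of 4 fed arrays) and Hr78 rose there (0.22 ± 0.07). In brain 1 of 9 rose and 3 fell, with a median of -0.13 against -0.09 over all probes. The ecdysone response genes had 3 of 11 lower in antennae, among them ImpE1 and the zinc-finger gene br (-0.67 ± 0.21). ImpE1 was 2.35-fold lower as measured, was not well above background on any starved array and was tested through the fed arrays alone. There was 1 of 11 lower in brain, ImpL2, a secreted insulin antagonist (-0.95 ± 0.21). Their medians were -0.18 and -0.14.

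Genes of ecdysteroid synthesis, uptake and inactivation were often dim, with 5 of the 10 that had a probe tested in each tissue. Those that moved rose: sad in antennae (0.66 ± 0.14) and brain (0.62 ± 0.08), and shd, whose enzyme converts ecdysone to its active form, in brain (1.85 ± 0.21). In brain 3 of 5 were higher, the other being the ecdysone importer gene EcI (0.48 ± 0.15), named after its value was seen, and the median was 0.48. Among coregulators, Smr, a corepressor of EcR, fell in both tissues (-0.54 ± 0.07 in antennae, -0.53 ± 0.11 in brain), mbf1 rose in antennae (0.36 ± 0.06) and tai, an EcR coactivator, fell in brain (-0.34 ± 0.08). The calls were 1 higher and 1 lower of 8 in antennae and 0 higher and 3 lower of 8 in brain, with medians of -0.10 and -0.16. Of the juvenile hormone genes 5 of 9 were higher and 2 lower in antennae, and 4 were higher and 1 lower in brain, with medians of 0.40 and 0.13. Met, a juvenile hormone receptor outside the nuclear receptor family, fell in both (-0.64 ± 0.08 and -0.68 ± 0.13) and its paralog gce in antennae (-0.37 ± 0.07), while the hormone-degrading Jheh2 rose in both (1.26 ± 0.09 and 0.80 ± 0.10) and Jheh1 rose in antennae (0.73 ± 0.06). Jhe, not well above background on any fed brain array, was at least 3.36-fold higher in starved brain. It was tested through the starved brain arrays alone, so that the filter set the direction of its call.

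The lists chosen for the settings of single members gave the following. Of sterol and lipid uptake genes, the setting of Hr96, Npc2g rose in antennae (0.80 ± 0.23) and brain (1.59 ± 0.18) and Npc2h rose in brain (1.23 ± 0.24). The lipase gene mag, not well above background on any starved brain array, was at least 14.7-fold lower there. It was tested through the fed brain arrays alone, so that the filter set the direction of its call. The counts were 1 higher and 0 lower of 6 in antennae and 3 higher and 1 lower of 8 in brain, with medians of 0.20 and 0.46. Fatty acid oxidation genes, the setting of Hnf4, had 0 higher and 2 lower of 14 in antennae (whd, the carnitine palmitoyltransferase, -0.48 ± 0.12, and Echs1, -0.44 ± 0.09) and 2 higher and 2 lower of 14 in brain (Acox57D-d 1.14 ± 0.17, Mtpalpha 0.34 ± 0.11, Mcad -0.53 ± 0.14, Etf-QO -0.42 ± 0.13). The medians of this list were -0.16 and 0.01. In fed flies 11 of these 14 were higher in antennae than in brain and 0 lower, with a median log2 difference of 0.76 against -0.13 over all probes, of which 33.1% were higher and 41.8% lower. In starved flies 11 of 14 were higher and 1 lower, with a median of 0.47 against -0.07 over all probes, of which 35.9% were higher and 41.0% lower. Of the muscle genes, 6 of 7 were higher in antennae and 0 lower in fed flies, with a median of 1.53. In starved flies 2 of the 7 muscle genes were higher and 1 lower, with a median of 0.68. The part of muscle RNA in these tissue differences was not tested.

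Glycolytic and pentose phosphate genes, the setting of ERR, had 6 higher and 2 lower of 15 in antennae, where ERR was higher, and 8 higher and 2 lower of 15 in brain, where ERR did not pass. Their medians were 0.16 and 0.33. Gpdh1 (0.68 ± 0.20 and 0.89 ± 0.10) and Pgd, of the pentose phosphate pathway (0.48 ± 0.10 and 1.0 ± 0.21), rose in both tissues, and Ldh (-1.21 ± 0.29 and -2.41 ± 0.59) and the hexokinase gene Hex-A (-0.67 ± 0.09 and -0.37 ± 0.07) fell in both. Activity-regulated genes, the setting of Hr38, had 1 higher and 1 lower of 5 in antennae, puc (0.39 ± 0.09) and CrebB (-0.82 ± 0.10), and 0 higher and 2 lower of 5 in brain, CrebB (-0.73 ± 0.10) and kay, the fly Fos (-0.28 ± 0.08), with medians of -0.19 and -0.28.

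For each receptor, the gene outside the family with the most similar pattern over the 16 arrays was sought among 13806 probes bright on all of them. The Pearson correlation was 0.998 for Hnf4 with CG17834 and for Eip78C with CG42402, 0.989 for svp with babos, 0.983 for Eip75B with IP3K2, 0.981 for usp with CG18004 and 0.977 for Hr38 with Atpalpha. It was 0.962 for Hr39 with fs(1)h, 0.954 for ERR with deltaCOP, 0.936 for EcR with mts and 0.884 for Hr96 with CG10338. The points share the tissue difference and the scaling of the arrays, and each value is the highest of many, so it is given as a description. After the group means were taken off, it was 0.642 to 0.888.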

How the data were processed

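The authors hybridized cyanine 3 labelled RNA copies to one-colour Agilent arrays, scanned them with Agilent Feature Extraction 9.1 and deposited, for each spot, a background-subtracted signal intensity that is not scaled between arrays. The deposited table of log2 values equals the log2 of that intensity minus the log2 75th percentile over all spots of the array and was used as an alternative. Control spots and outlier spots were left out, the log2 75th percentile over the 43603 other spots of an array was subtracted from each log2 signal, and spots of 1 probe were averaged. The percentile scaling and the log2 follow the study's methods, the removal of spots was added here, and the baseline transformation of the methods was not made. Tested probes were well above background (0.5 or more of their spots) on every array of 1 group or more.

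Groups were compared with limma 3.58.1 (lmFit, eBayes; R 4.3.3, package data.table of version 1.17.8) in a two-sided test, adjusted after Benjamini and Hochberg over every probe tested at 0.05, and single probes also with an exact permutation test. Figures came from matplotlib 3.10.9 and tables from scipy 1.17.1, pandas 2.3.3 and numpy 2.4.6 under Python 3.11.15. Members were found by the gene name or gene number in the files, and 20390 probes were matched to 13112 genes of Release 6. The members and gene lists were chosen with earlier results of these data known. All member probes are named; of each list the 2 largest rises and 2 largest falls among called genes in each tissue, and 1 most similar gene per member. phm had no matched probe. No sequences or coordinates are given.

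The alternatives were normexp, quantile scaling, centring on the median, the percentile over detected probes, other filters, the replicate number (slide) as a block, array weights, 1 fit over 16 arrays, the methods' t-test, gene means, the deposited table and leaving out each array. The limma step was checked on simulated data with 200 changed probes. The number of arrays limits the precision. Behaviour, silencing and recordings were not analysed here.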

Additional observations from a re-analysis of the deposited data

Results flagged for a closer look

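In 8 of 97 groups of 4 arrays (8.25%) 1 array lay far from the other 3, by the share of the group's range that its gap to the nearest array takes; chance gives about 1 in 20. In brain labelled fed, replicate 4 was low on Hr38 A_09_P214370 (0.897) and Eip75B A_09_P042221 (0.878), and replicate 1 was low on ERR (0.840). In brain labelled starved, replicate 4 was high on ERR (0.915). In antennae labelled fed, replicate 1 was high on Eip75B A_09_P049541 (0.852) and low on Hr38 A_09_P030386 (0.843), and replicate 3 was high on Hr38 A_09_P046976 (0.846). In antennae labelled starved, replicate 3 was high on Hnf4 A_09_P047756 (0.890).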

How the results depend on the processing

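The number of member calls in antennae, 8, became 13 with centring on the median and 7 to 8 without 1 array. It was also 13 with the mean over the probes of a gene, but there the 1 result of a gene counts for each of its tested probes. The genes with a call stayed at 5 in antennae under this mean, and went from 3 to 1 in brain. In brain, 4 became 2 with quantile scaling, 2 with no filter on dim probes, 2 with the methods' t-test and 2 to 7 without 1 array, the highest without brain fed replicate 4 and the lowest without each of 6 other arrays. The interaction went from 0 to 1 with array weights and 0 to 1 without 1 array. The tissue counts stayed within 1.5 times of the main ones. Of single called probes, 4 turned sign: Hr39 A_09_P144520 in antennae with centring on the median (0.0069), svp A_09_P009651 in brain with the mean over the probes of the gene (-0.048), svp A_09_P090830 in starved flies with normexp (0.12) and EcR A_09_P051976 in starved flies with the mean over the probes of the gene (0.025). The causes were not tested, except that the mean over probes joins probes of opposite sign. Over the settings that leave out no array, called probes kept direction and call in 546 fits and lost the call in 34. Deviations from the group mean correlated by -0.236 to 0.285 between arrays of 1 replicate number and by -0.359 to 0.318 between arrays of different numbers. The mean was higher for the same number in each comparison, at most 0.091 against -0.032, in fed antennae and brain. So few arrays cannot settle whether the number pairs extracts beyond the shared slide. Whether antennae and brains of 1 number came from the same flies is not stated. As a block, the replicate number gave 7 calls in antennae, 4 in brain, 17 and 20 between tissues and 0 for the interaction.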
